A study of Mus musculus with 8 samples.

Results

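The 9 genes described here encode parts of the TGF-β and activin pathways. They were taken by symbol from the 30890 rows of the count table, and the set was chosen with earlier results of these data known. They are the ligand genes *Tgfb1*, *Tgfb2*, *Tgfb3*, *Inhba* and *Inhbb*, the receptor genes *Tgfbr1*, *Tgfbr2* and *Tgfbr3*, and the latent TGF-β binding protein gene *Ltbp1*. Each of the 9 passed the filter on low counts that left 16723 genes for testing. TGF-β is secreted in a latent complex, in which its own propeptide holds it inactive and a latent TGF-β binding protein ties it to the extracellular matrix. Once released, a TGF-β dimer joins type II and type I receptor kinases, and the type I receptor phosphorylates Smad2 and Smad3, which enter the nucleus with Smad4. Activins are dimers of the subunits encoded by *Inhba* and *Inhbb*, signal to the same Smads through their own receptors, and are held in check by follistatin. In the developing kidney these ligands are known as regulators of branching of the ureteric bud, of mesenchyme and of matrix deposition.

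The samples were C57BL/6 mouse kidneys, explanted at E12.5, the mid-gestation stage at which the ureteric bud has begun to branch, and kept for 72 h on a floating filter. The treated group received 5 µM CHIR99021, an inhibitor of the kinase GSK-3β whose loss of activity stabilises β-catenin, and the control group received 0.1% DMSO, with n = 4 kidneys in each. No genetic change was present in either group. The methods state that the left kidney of an embryo served as control and the right one as treated, and that kidneys without the usual Wnt target response were discarded, so each library holds a whole organ with all its cell types and the treated organs were selected for response. The comparison asks what 72 h of CHIR99021 does to transcripts of the embryonic kidney. No group parts stabilised β-catenin from other effects of the inhibitor.

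Libraries held 14599082 to 17751992 counted reads. The Wnt response genes *Axin2*, *Lef1*, *Notum*, *Nkd1* and *Sp5* were higher with CHIR99021 in 5 of 5 cases, which is no independent check, as the kidneys had been selected on such genes. Kidney markers were present: the summed level of 6 nephron progenitor markers was 468 to 581 CPM (counts scaled to library size) with DMSO and 24.2 to 34.7 CPM with CHIR99021, and that of 6 ureteric markers was 281 to 352 and 123 to 143 CPM. The liver markers set DMSO replicates 2 and 4 apart, at 1113 and 777 CPM summed over 6 genes, against 5.74 and 49.4 CPM in DMSO replicates 3 and 1 and at most 6.99 CPM in the treated kidneys, where *Ttr* had 0 reads. Values without these 2 libraries are given with the members. CPM values were scaled by TMM, which assumes that most genes do not change. Scaling by total reads instead moved the median log2 fold change of all genes by -0.14 and the share of higher genes among those called from 48.6% to 29%, so the small changes among the 9 genes are given under both scalings.

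At an adjusted p under 0.05 (edgeR quasi-likelihood test, Benjamini-Hochberg over all tested genes), 7 of the 9 genes were called, 5 higher and 2 lower. Across all tested genes 48.7% were called, 23.7% higher and 25% lower, so that the count alone does not set the 9 genes apart. The 9 genes differed from each other in size: their log2 fold changes ran from -0.81 to 3.21, with a median of 0.30 against -0.0029 for all tested genes. A call together with a log2 fold change over 1 was met by *Inhbb*, *Inhba* and *Tgfb2*, and by 4.65% of all tested genes. None of the 9 had a call with a log2 fold change below -1, against 9.16% of all tested genes. In 5 genes every treated kidney was above every control (22.7% of all tested genes), and in 1, *Tgfbr3*, every treated kidney was below (23.4%). Ordered by rise among 16723 genes, *Inhbb* stood 117th, *Inhba* 151st and *Tgfb2* 295th.

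Because these 3 genes had the largest changes, the 250 bases upstream of their start sites are shown (RefSeq, GRCm38.p6, 5′ to 3′ on the strand of the gene). Capitals mark a TCF/LEF core, the motif read by the DNA-binding partners of β-catenin, searched on both strands with the letters CTTTGAA or CTTTGAT or CTTTGTA or CTTTGTT. The regions are chr13:16011601-16011850 on the plus strand for *Inhba*, chr1:186705990-186706239 on the minus strand for *Tgfb2*, and chr1:119422249-119422498 on the minus strand for *Inhbb*.
Inhba: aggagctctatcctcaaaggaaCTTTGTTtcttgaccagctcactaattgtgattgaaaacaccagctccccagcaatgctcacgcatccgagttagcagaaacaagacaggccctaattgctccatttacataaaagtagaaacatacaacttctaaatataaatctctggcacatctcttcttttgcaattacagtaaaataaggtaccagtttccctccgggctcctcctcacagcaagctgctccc
Tgfb2: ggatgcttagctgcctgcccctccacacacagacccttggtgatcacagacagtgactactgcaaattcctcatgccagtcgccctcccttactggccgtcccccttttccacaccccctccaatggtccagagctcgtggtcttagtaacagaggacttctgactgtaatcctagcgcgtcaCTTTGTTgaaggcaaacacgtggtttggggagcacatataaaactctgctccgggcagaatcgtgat
Inhbb: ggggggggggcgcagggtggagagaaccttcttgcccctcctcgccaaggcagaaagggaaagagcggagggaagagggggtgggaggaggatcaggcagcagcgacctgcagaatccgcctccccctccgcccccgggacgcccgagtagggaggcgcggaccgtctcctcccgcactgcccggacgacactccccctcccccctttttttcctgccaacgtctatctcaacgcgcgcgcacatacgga
The core lay 228 bases before the start of *Inhba* and 67 bases before that of *Tgfb2*, and *Inhbb* had none of these letters in the window. Of the 9 promoter entries found for 7 of the member genes, 3 held a core, the third being *Tgfbr1* (TACAAAG, the core on the other strand, 30 bases before the start), whose level differed little between the groups. Of all 32851 promoters of the same length, 14.8% held a core. The Smad palindrome GTCTAGAC was in 0 of the 9 entries and in 0.167% of all promoters.

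*Inhbb* (chr1:119415465-119422248, minus strand) encodes the activin βB subunit and rose the most of the 9. It was at 26.3, 24.9, 15.2 and 25.1 CPM in DMSO replicates 1 to 4 and at 175.7, 210.5, 221.5 and 238.2 CPM in CHIR99021 replicates 1 to 4. The lowest treated kidney lay far above the highest control, and DMSO replicate 3 was the lowest of all. The means were 22.9 ± 5.17 and 211 ± 26.4 CPM (SD, n = 4), a 9.24-fold rise with a log2 fold change of 3.21 (SE 0.18, adjusted p = 2.52e-06 by edgeR). In pairs of equal replicate number the log2 difference ran from 2.73 to 3.86.

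*Inhba* (chr13:16011851-16031621, plus strand) encodes the βA subunit, which forms activin A as a homodimer. Its levels were 13.6, 15.2, 14.9 and 24.5 CPM with DMSO and 105.5, 111.7, 142.7 and 136.5 CPM with CHIR99021. DMSO replicate 4 was above the other controls and still far under every treated kidney. The mean rose 7.31-fold, from 17.1 ± 4.98 to 124 ± 18.3 CPM (SD, n = 4; log2 fold change 2.87, SE 0.20, adjusted p = 9.57e-06 by edgeR). Without DMSO replicates 2 and 4, the libraries with liver transcripts, the log2 fold changes of *Inhba* and *Inhbb* were 3.11 and 3.34.

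*Tgfb2* (chr1:186622792-186705989, minus strand) encodes the TGF-β isoform that depends most on a co-receptor to reach the type II receptor. Levels were 40.5, 43.2, 47.0 and 40.4 CPM with DMSO and 150.9, 185.6, 175.1 and 158.4 CPM with CHIR99021. Neither group was spread widely and the gap between them was over 100 CPM. The rise was 3.91-fold, from 42.8 ± 3.12 to 168 ± 15.8 CPM (SD, n = 4; log2 fold change 1.97, SE 0.07, adjusted p = 8.79e-10 by edgeR). An antisense transcript, Gm29491, shares 2.14% of the exon bases of *Tgfb2*, and no source used here says whether reads were assigned by strand.

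*Tgfb1* (chr7:25687002-25705077, plus strand), the isoform widely expressed by blood and stromal cells, did not share this rise. It was at 41.8, 41.4, 46.5 and 35.5 CPM with DMSO and at 35.5, 39.0, 34.5 and 33.2 CPM with CHIR99021. The groups overlapped, as DMSO replicate 4 lay among the treated kidneys, yet the treated kidney was the lower one in 4 of 4 pairs. The mean went from 41.3 ± 4.53 to 35.5 ± 2.46 CPM (SD, n = 4; log2 fold change -0.22, SE 0.08, adjusted p = 0.0469 by edgeR). The call depended on the setting: it was lost with DESeq2 (adjusted p = 0.0534), with limma on log2(count + 1) and on leaving out any of 6 libraries. It held with the replicate block (-0.21, adjusted p = 0.0270) and, with a larger change, under total-read scaling (-0.35, adjusted p = 0.00321 by edgeR) and in limma on log2(FPKM + 1) (-0.31, adjusted p = 0.0101).

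*Tgfb3* (chr12:86056745-86079041, minus strand), the third isoform, had 47.7, 40.2, 59.0 and 48.1 CPM with DMSO and 53.0, 60.7, 63.2 and 53.7 CPM with CHIR99021. DMSO replicate 3 lay within the treated range. The means of 48.8 ± 7.76 and 57.6 ± 5.07 CPM (SD, n = 4) gave a log2 fold change of 0.24 (SE 0.11), which missed the threshold (adjusted p = 0.0868 by edgeR). The treated kidney was higher in 4 of 4 pairs, and the same gene passed once replicate number entered the fit as a block, at 0.25 (SE 0.08, adjusted p = 0.0249 by edgeR). It also passed without DMSO replicate 3 (0.34, adjusted p = 0.00638). Under total-read scaling it was smaller and not called, at 0.10 (adjusted p = 0.461 by edgeR), and in limma on log2(FPKM + 1) it was at 0.11 (adjusted p = 0.441). Other transcripts on the opposite strand, Gm37804 and Gm48008, cover 12.4% of its exon bases.

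**Figure D1:**
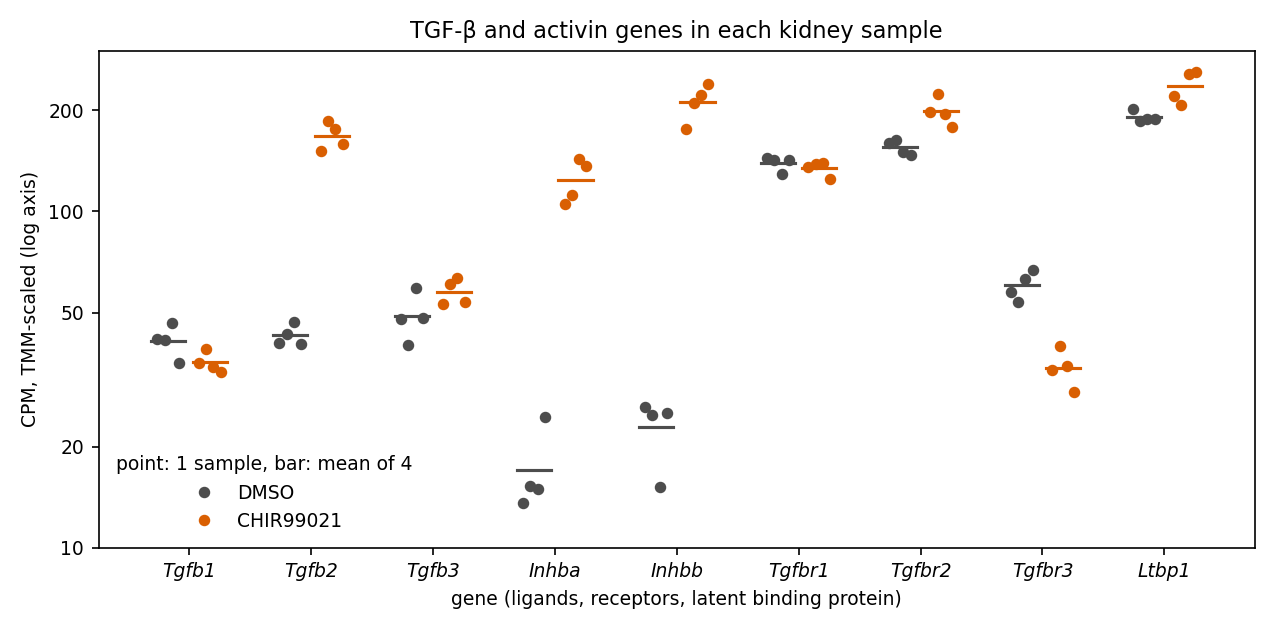
TMM-scaled CPM (log axis) of the 9 genes in each of the 8 kidney samples, with 1 point per sample and a bar at the mean of 4 samples, DMSO in grey and CHIR99021 in orange. *Inhbb*, *Inhba* and *Tgfb2* had treated kidneys far above every control, *Tgfbr3* had them below, and the other genes had groups that overlapped or lay close together.

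The makeup of the ligand transcripts was compared within each kidney as FPKM, the length- and depth-scaled read values that the authors deposited, since such shares do not depend on how libraries are scaled. *Tgfb2* made up 23.3 to 27.1% of the summed FPKM of the 3 TGF-β genes with DMSO and 53.4 to 55.5% with CHIR99021, without overlap. *Tgfb3* had been the largest of the 3 with DMSO, at 43.1 to 50.4%, and made up 31.1 to 33.5% with CHIR99021. The share of *Tgfb1* was 24.9 to 29.8% with DMSO and 12.3 to 14.4% with CHIR99021.

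Between the activin subunits the balance moved less than their amount. *Inhbb* made up 60.4 to 74.3% of the summed FPKM of *Inhba* and *Inhbb* with DMSO and 70.0 to 73.9% with CHIR99021, and these ranges overlapped. Together both subunits made up 14.5 to 25.6% of the FPKM of the 5 ligand genes in the controls and 53.7 to 60.8% in the treated kidneys. The sum over the 5 ligand genes was 37.2 to 43.0 FPKM with DMSO and 101 to 124 FPKM with CHIR99021.

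**Figure D2:**
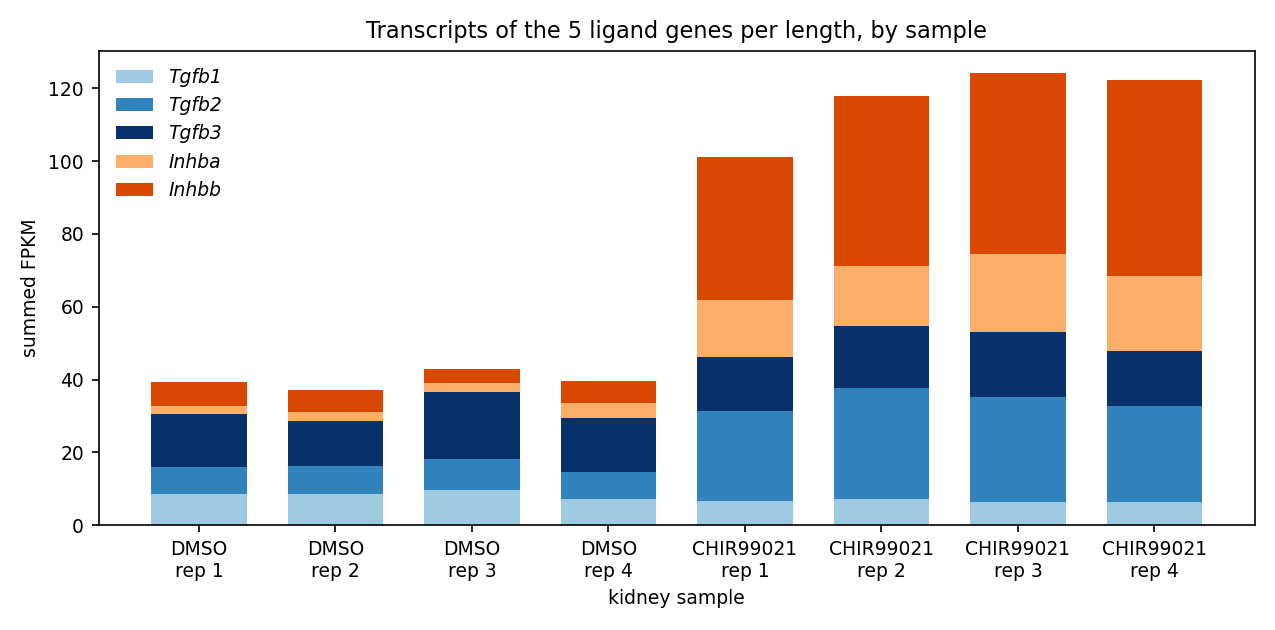
Stacked FPKM of the 5 ligand genes in each of the 8 kidney samples, the TGF-β genes in blue and the activin subunit genes in orange, with the axis starting at 0. All 4 treated kidneys were over 100 FPKM in sum and the 4 controls at 37.2 to 43.0 FPKM, and the activin subunits went from the smaller to the larger part of the bar.

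The receptor transcripts moved by less than those of *Inhbb*, *Inhba* and *Tgfb2*, and in both directions. *Tgfbr1* (chr4:47353222-47414931, plus strand), the type I receptor kinase that phosphorylates Smad2 and Smad3, was at 143.8, 142.2, 128.9 and 142.0 CPM with DMSO and at 135.5, 137.8, 139.5 and 124.4 CPM with CHIR99021. The groups overlapped. The log2 fold change was -0.05 (SE 0.05, adjusted p = 0.444 by edgeR), while scaling by total reads gave -0.19 with a call (adjusted p = 0.00685), so a fall of this size depends on the scaling.

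*Tgfbr2* (chr9:116084293-116175360, minus strand) encodes the type II receptor kinase, which binds ligand first and activates the type I receptor. It had 159.9, 162.7, 150.5 and 147.0 CPM with DMSO and 196.8, 223.0, 194.8 and 178.2 CPM with CHIR99021, and every treated kidney was above every control. The rise was 1.28-fold, from 155 ± 7.46 to 198 ± 18.5 CPM (SD, n = 4; log2 fold change 0.35, SE 0.06, adjusted p = 0.000534 by edgeR). It was called under all 17 alternative settings, with log2 fold changes of 0.21 to 0.41, and at 0.22 under total-read scaling (adjusted p = 0.00917 by edgeR).

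*Tgfbr3* (chr5:107106570-107289629, minus strand) encodes betaglycan, a co-receptor without kinase activity that presents TGF-β2 to the type II receptor and also binds inhibin. It was at 57.5, 53.8, 63.1 and 66.9 CPM with DMSO and at 33.7, 39.9, 34.7 and 29.0 CPM with CHIR99021. Every treated kidney was below every control. The mean fell 1.76-fold, from 60.3 ± 5.82 to 34.3 ± 4.47 CPM (SD, n = 4; log2 fold change -0.81, SE 0.10, adjusted p = 2.32e-05 by edgeR), and the call held under all 17 alternatives, at -0.95 under total-read scaling. A transcript on the same strand, Gm43422, covers 4.54% of its exon bases.

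The receptor genes shifted against each other inside each kidney. Counts of *Tgfbr2* over those of *Tgfbr1* were 1.04 to 1.17 in the controls and 1.40 to 1.62 in the treated kidneys. Counts of *Tgfbr3* over those of *Tgfbr2* were 0.331 to 0.455 in the controls and 0.163 to 0.179 in the treated kidneys. Neither pair of ranges overlapped, and neither ratio depends on the library scaling. Levels in a whole organ cannot tell fewer cells of a type from less RNA per cell.

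*Ltbp1* (chr17:75005568-75392512, plus strand) encodes the matrix protein to which the latent TGF-β complex is bound. It was at 202.0, 185.3, 188.6 and 187.7 CPM with DMSO and at 220.2, 206.3, 255.7 and 259.3 CPM with CHIR99021. The groups did not overlap, although CHIR99021 replicate 2 lay only just above DMSO replicate 1. The log2 fold change was 0.30 (SE 0.07, adjusted p = 0.00370 by edgeR), from 191 ± 7.51 to 235 ± 26.2 CPM (SD, n = 4). It was 0.17 without a call when libraries were scaled by total reads (adjusted p = 0.0770), and 0.26 without a call in the absence of DMSO replicates 2 and 4 (adjusted p = 0.0624).

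Left without DMSO replicates 2 and 4, the other 6 genes had log2 fold changes of 1.93 (*Tgfb2*), -0.32 (*Tgfb1*), 0.10 (*Tgfb3*), -0.03 (*Tgfbr1*), 0.35 (*Tgfbr2*) and -0.82 (*Tgfbr3*). Their calls were as with all libraries, and *Ltbp1* was the one gene of the 9 to change its call.

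**Figure D3:**
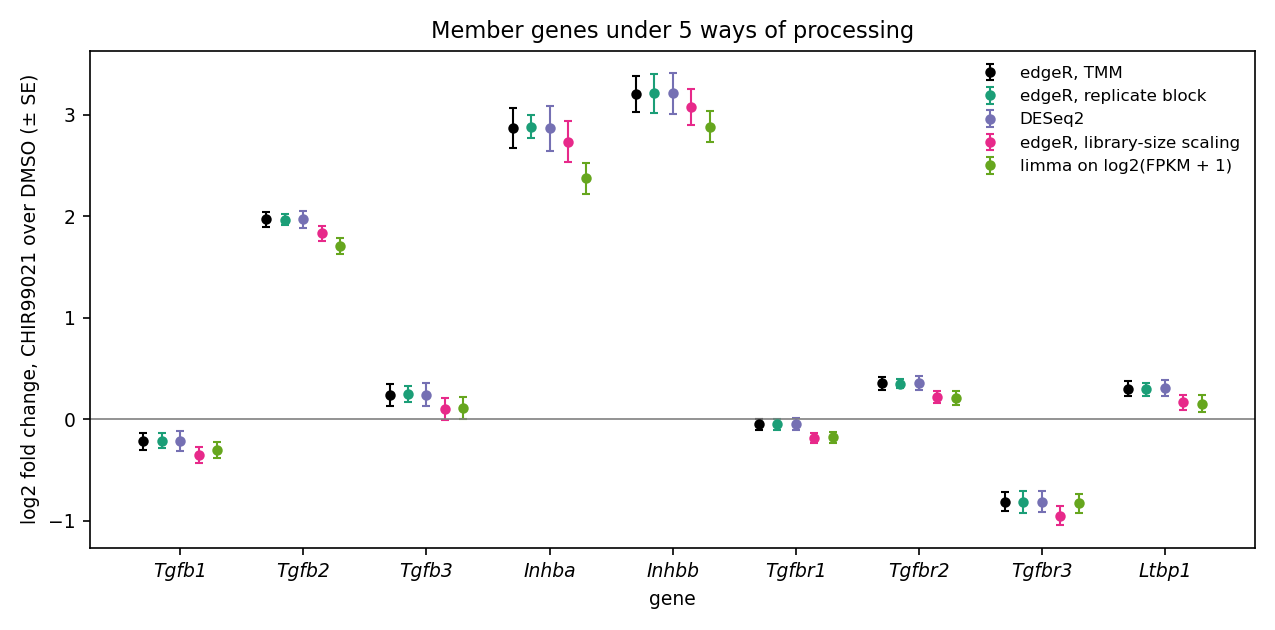
Log2 fold change (CHIR99021 over DMSO, ± SE) of the 9 genes under 5 ways of processing, with 1 colour for each. *Inhbb*, *Inhba*, *Tgfb2*, *Tgfbr2* and *Tgfbr3* kept their direction and call under each, whereas *Tgfb1*, *Tgfb3*, *Tgfbr1* and *Ltbp1* ran from -0.35 to 0.30 and their calls varied.

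The order of the 9 genes by level, set per length in FPKM, was different in the treated kidneys. With DMSO, *Tgfbr1* came first at 22.3 ± 0.975 FPKM (SD, n = 4) and its range did not overlap that of *Tgfbr2* at 19.8 ± 0.852. *Ltbp1* at 19.0 ± 0.726 had a range that overlapped those of *Tgfbr2* and of *Tgfb3* at 15.1 ± 2.50 FPKM. Within each control kidney, however, *Tgfbr2* was above *Ltbp1* and *Ltbp1* above *Tgfb3*. *Tgfbr3*, *Tgfb1* and *Tgfb2* followed at 9.64, 8.56 and 7.73 FPKM, with overlapping ranges but in this order within each control kidney. *Inhbb* at 5.62 ± 1.24 and *Inhba* at 2.79 ± 0.818 FPKM came last. The activin subunits were thus the lowest of the 9 in control kidneys.

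With CHIR99021, *Inhbb* came first at 47.4 ± 6.14 FPKM (SD, n = 4), above *Tgfb2* at 27.5 ± 2.50 FPKM without overlap. *Tgfb2*, *Tgfbr2* (23.1), *Ltbp1* (21.4), *Tgfbr1* (19.6), *Inhba* (18.5) and *Tgfb3* (16.2 FPKM) formed a run in which each gene overlapped the next. Within each treated kidney *Tgfb2* was above *Tgfbr2*, while the order of every later pair of neighbours varied between kidneys. *Tgfb1* at 6.71 ± 0.424 and *Tgfbr3* at 4.99 ± 0.620 FPKM were the lowest and were parted from each other and from the rest.

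The genes around the 9 were read from 6 lists by role, 74 genes in all, of which 61 were tested. Of these, 30 were higher and 14 lower with CHIR99021 (72.1% called, against 48.7% of all tested genes), and their median log2 fold change was 0.34. The lists too were chosen with earlier results of these data known, so their shares are not independent of the data.

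Follistatin, encoded by *Fst*, is a secreted protein that binds activins and blocks them. It was at 3.62, 5.60, 7.09 and 6.41 CPM with DMSO and at 48.2, 70.3, 86.7 and 88.5 CPM with CHIR99021, with no overlap. The rise was 13.0-fold (log2 fold change 3.70, SE 0.27, adjusted p = 1.50e-05 by edgeR). Per length, *Fst* stood at 0.129 to 0.356 of the summed *Inhba* and *Inhbb* FPKM in the controls and at 0.247 to 0.345 in the treated kidneys. These ranges overlapped only through DMSO replicate 3 (0.356). DMSO replicates 1, 2 and 4, at 0.129, 0.201 and 0.195, lay below every treated kidney. The mean ratio was 0.220 with DMSO and 0.311 with CHIR99021. *Fstl3*, a relative of follistatin, was higher by a log2 fold change of 0.65 (adjusted p = 0.00159) from a level of 6.76 ± 0.700 CPM (SD, n = 4).

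*Inha* encodes the α subunit, which pairs with the products of *Inhba* or *Inhbb* to give inhibins, the antagonists of activins. Its level was 9.19 to 12.4 CPM with DMSO and 9.30 to 11.8 CPM with CHIR99021, with a log2 fold change of -0.08 (SE 0.13, adjusted p = 0.632 by edgeR). Against the summed FPKM of *Inhba* and *Inhbb* it stood at 0.757 to 1.43 in the controls and 0.0896 to 0.109 in the treated kidneys. Of the other 9 genes in the list of further ligands, *Gdf11*, which shares the activin receptors, was higher (0.50, adjusted p = 6.95e-05), 7 had too few reads to be tested and 1 had no row.

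The 3 tested receptors of activin were lower, while its subunits were higher. *Acvr2a*, a type II receptor, went from 73.1 ± 4.86 to 51.6 ± 5.43 CPM (SD, n = 4; log2 fold change -0.50, adjusted p = 0.000144 by edgeR). *Acvr2b*, the other type II receptor, had a log2 fold change of -0.40 (adjusted p = 0.0303) with overlapping groups, and lost its call under 6 of 17 alternatives. *Acvr1b*, the type I activin receptor, was at -0.25 (adjusted p = 0.00233). In the list of 9 further receptors and co-receptors, 6 were tested, 4 were lower and 1 higher (66.7% and 16.7%, against 25% and 23.7% of all tested genes), with a median log2 fold change of -0.32.

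*Acvrl1* and *Eng*, a type I receptor and a co-receptor both best known from endothelium, went apart. *Acvrl1* fell from 20.5 ± 0.725 to 9.06 ± 1.06 CPM (SD, n = 4; log2 fold change -1.18, adjusted p = 9.08e-07 by edgeR). *Eng* rose from 42.0 ± 1.94 to 67.0 ± 9.89 CPM (SD, n = 4; log2 fold change 0.67, adjusted p = 8.87e-05 by edgeR). The endothelial markers were lower in 10 of 10 cases, with a summed level of 529 to 720 CPM in controls and 215 to 289 CPM in treated kidneys and none at 0, and their part in either change was not tested.

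Of 13 genes of latency and activation, 7 were higher and 4 lower (53.8% and 30.8%, against 23.7% and 25% of all tested genes), with a median log2 fold change of 0.35. *Furin*, the protease that cuts the TGF-β precursor, rose by 0.71 on the log2 scale (adjusted p = 3.49e-06 by edgeR), and *Itgav*, a subunit of integrins that release latent TGF-β, rose by 0.56 (adjusted p = 1.45e-05). The integrin β subunit genes of the list did not rise with it. *Itgb6* fell (log2 fold change -0.93, adjusted p = 0.000734 by edgeR) and *Itgb8* was not called (0.15, adjusted p = 0.237). Both are named after their values were seen. *Ltbp4*, a binding protein related to that of *Ltbp1*, had a log2 fold change of -0.46 (adjusted p = 2.09e-05). *Nrros*, which anchors latent TGF-β1 on macrophages, went from 19.6 ± 4.35 to 6.34 ± 1.07 CPM (SD, n = 4; log2 fold change -1.63, adjusted p = 1.32e-05). Macrophage markers moved with it and with *Tgfb1*: 9 of the 9 tested were lower, their sum was 246 to 251 CPM in DMSO replicates 1 to 3, 78.2 CPM in DMSO replicate 4 and 25.9 to 49.2 CPM in treated kidneys, and *Cx3cr1* had 0 reads in CHIR99021 replicate 4. DMSO replicate 4 also had the lowest control values of *Tgfb1* and *Nrros*. It had the lowest control sums of endothelial (529 CPM) and nephron progenitor markers (468 CPM) too, though not of the other marker lists. The part of any of these cells in either change was not tested.

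Of 7 extracellular and membrane antagonists, 5 were higher and 1 lower (71.4% and 14.3%, against 23.7% and 25% of all tested genes), with a median log2 fold change of 0.65. Besides *Fst* and *Fstl3* the higher ones were *Bgn*, a matrix proteoglycan that binds TGF-β, at 439 ± 56.1 and 1625 ± 109 CPM (SD, n = 4; log2 fold change 1.89, adjusted p = 9.77e-09 by edgeR), *Bambi*, a pseudoreceptor without a kinase (1.20, adjusted p = 1.33e-07), and *Vasn*, a membrane protein that binds TGF-β (0.42, adjusted p = 1.51e-05). The gene that fell was *Aspn*, another matrix proteoglycan, with a log2 fold change of -2.55 (adjusted p = 0.00297); it is named as the only member that fell.

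Among 16 tested Smads and intracellular regulators, 4 were higher and 5 lower, a median log2 fold change of -0.06 and a share called of 56.2%, near that of all genes. *Smad3*, a receptor-activated Smad, fell from 127 ± 6.24 to 87.6 ± 2.69 CPM (SD, n = 4; log2 fold change -0.54, adjusted p = 2.03e-06 by edgeR). The higher genes included the co-repressor genes *Skil* (0.56, adjusted p = 3.57e-07) and *Tgif1* (0.62, adjusted p = 9.73e-06). Their relatives in the list did not rise: *Tgif2* was lower with overlapping groups (-0.67, adjusted p = 0.0138), and *Ski* was not called (-0.13, adjusted p = 0.0668). *Pmepa1*, an inhibitor of receptor-activated Smads that TGF-β induces, went from 73.8 ± 1.65 to 172 ± 19.1 CPM (SD, n = 4; 1.22, adjusted p = 3.56e-08). In the same list *Smad7* was not called (0.17, adjusted p = 0.0707). *Tgif2*, *Ski* and *Smad7* are named after their values were seen.

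Of 17 tested genes known as targets of TGF-β signalling, 12 were higher and 0 lower (70.6% and 0%, against 23.7% and 25% of all tested genes), and their median log2 fold change was 0.96. *Snai1*, a transcription factor of epithelial-mesenchymal transition, rose from 20.2 ± 0.971 to 59.7 ± 8.00 CPM (SD, n = 4; log2 fold change 1.56, adjusted p = 3.46e-08 by edgeR). *Tgfbi*, a matrix protein named for its induction by TGF-β, rose from 338 ± 20.8 to 681 ± 84.6 CPM (1.01, adjusted p = 1.35e-06), *Fn1*, the gene of fibronectin, by 0.96 (adjusted p = 4.83e-07) and *Tgfb1i1*, a focal adhesion protein, by 0.73 (adjusted p = 5.43e-07). Not every textbook target was higher: *Ctgf*, a matricellular protein gene, had a log2 fold change of 0.06 (SE 0.14, adjusted p = 0.733), and is named after its values were seen. Many of these genes are also matrix genes of stroma. The summed level of 6 stromal markers was 738 to 903 CPM with DMSO and 1041 to 1113 CPM with CHIR99021, with none at 0. Only 1 of the 6 was higher (*Pdgfra*, from a mean of 222 to 505 CPM), and 3 were lower. The part of stromal cells in the target genes was not tested.

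**Figure D4:**
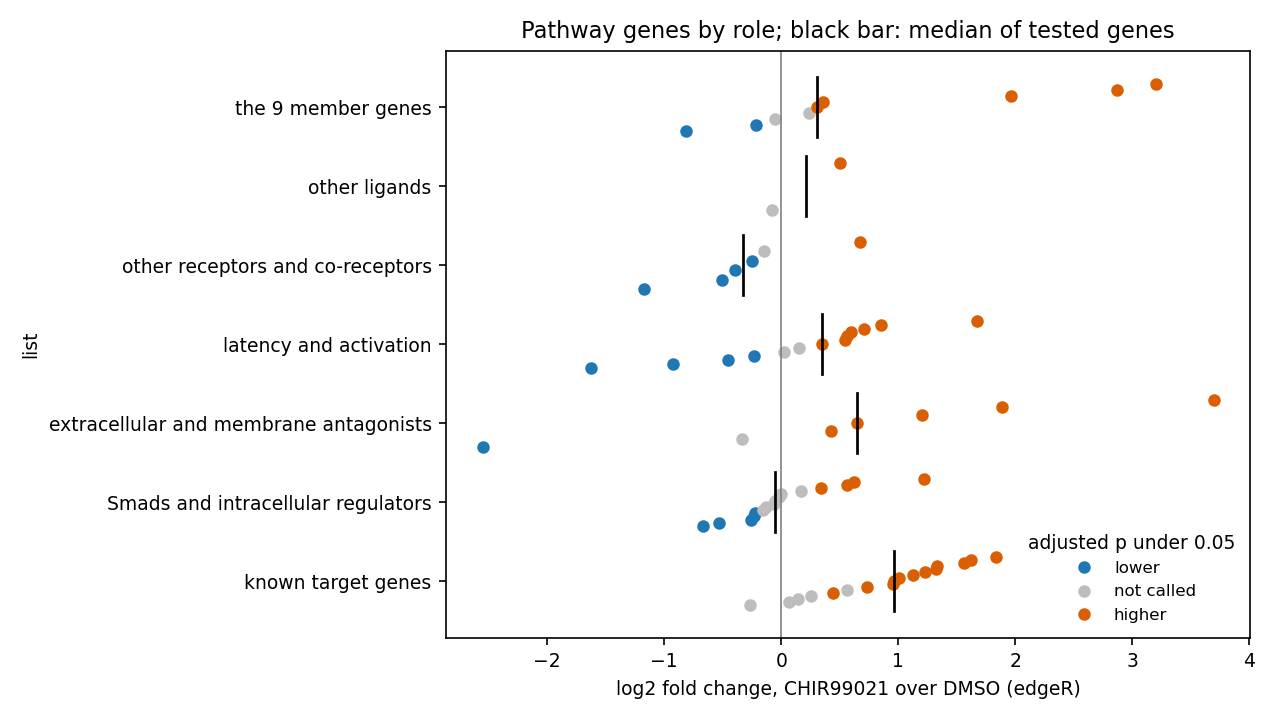
Log2 fold change (CHIR99021 over DMSO, edgeR) of every tested gene of the 9 members and of the 6 lists by role, 1 point a gene, in orange where called higher, blue where called lower and grey where not called, with a black bar at the median of the list. The antagonists and the known targets lay mostly to the right of 0, and the further receptors mostly to the left.

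Other marker lists moved with treatment as well. Mural and smooth muscle markers summed to 858 to 1018 CPM with DMSO and 606 to 680 CPM with CHIR99021 (4 of 8 lower, 1 higher, none at 0). Podocyte markers summed to 93.5 to 151 and 91.8 to 137 CPM, with 2 of the 4 tested lower, 1 higher and *Nphs1* at 0 reads in CHIR99021 replicate 4. Erythroid markers summed to 4.60 to 16.4 and 2.87 to 7.50 CPM, with 0 of the 3 tested called (edgeR). Their part in the changes of the 9 genes was not tested.

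Across the 8 samples, the genes with levels most like those of *Inhbb* among 15573 genes with a mean of at least 1 CPM were *Cpm* (Pearson r of log2 CPM 0.998), *Gm4737* (0.997) and *Adcy1* (0.996). For *Inhba* they were *Ptprn* (0.998), *Actr1b* (0.998) and *Fndc3b* (0.997). The samples form 2 separate groups, so r also reflects the difference between them, and 58 genes passed 0.99 with *Inhbb* and 46 with *Inhba*. The size of the difference varied among the matches, from a log2 fold change of 0.31 for *Actr1b* to 2.73 for *Ptprn*. These values describe the pattern and carry no test.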

How the data were processed

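RNA of 8 cultured embryonic kidneys was sequenced, 4 treated with DMSO and 4 with CHIR99021, with groups taken from the labelled agent. The authors aligned reads with HISAT2 2.0.5 to GRCm38 and deposited raw counts per gene from featureCounts. The strand setting and annotation release are in no source used here. The deposited FPKM values divide by transcript length and reads. The authors' own comparison, also deposited (a mean signal after size factors, a fold ratio, its log2 value and p-values), was not used. The paper and the labels name different RNA extraction and library kits.

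Counts were analysed in R 4.3.3 with edgeR 4.0.16. filterByExpr (minimum count 10, total 15) kept 16723 of 30890 genes, libraries were scaled by TMM, and groups were compared by glmQLFit (robust) and glmQLFTest with group as the only term, with Benjamini-Hochberg adjustment across every gene tested and a threshold of 0.05. The SE is the absolute log2 fold change over the square root of F. Tested on simulated counts of 16723 genes for this comparison, the fit called 95 of 100 genes changed by a log2 fold change of 1 and 100 of 100 changed by 2, with 5.34% of calls false. Only these genes were changed, equally up and down, all were well counted, and the simulation held no pairs. In the data 48.7% of tested genes were called, so this share of false calls cannot be carried over to them.

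The paper assigns the left kidney of an embryo to DMSO and the right one to CHIR99021, without tying replicate numbers to embryos, and the labels give both groups the numbers 1 to 4. Deviations from group means correlated at 0.111 to 0.346 for equal numbers and at -0.180 to 0.0766 for others, and each of the 8 samples was closest to its own number, so the numbers were read as pairs from the data. The 17 alternatives were the replicate block, RLE and total-read scaling, no filter, DESeq2 1.42.0, limma 3.58.1 on log2(count + 1), log2(FPKM + 1) and log2(FPKM + 0.1), each library left out, and DMSO replicates 2 and 4 left out.

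The 9 genes, the pathway lists and the marker lists were chosen with earlier results of these data known. Genes named were the 9 members, up to 4 genes of each pathway list with the smallest p, the activin receptors, *Acvrl1*, *Eng*, *Fst*, *Fstl3* and *Inha*, and the 3 genes most like *Inhbb* and *Inhba* by Pearson's r. P-values set the difference between the groups against the spread between these kidneys, and leave the pairs out except where the replicate block is named.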

Additional observations from a re-analysis of the deposited data

Results flagged for a closer look

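In each group of 4 kidneys, 66 groups over 33 named genes, it was asked whether the highest or lowest value lay far from the other 3 by Dixon's criterion at 95%. This held for 7 of 66 groups (10.6%), where chance gives about 1 in 20. Among the 9 members, *Inhba* was at 24.5 CPM in DMSO replicate 4 against 13.6 to 15.2 CPM in the other controls, *Inhbb* at 15.2 CPM in DMSO replicate 3 against 24.9 to 26.3 CPM, and *Tgfbr1* at 128.9 CPM in DMSO replicate 3 against 142.0 to 143.8 CPM. Among the other pathway genes, *Acvr2a* was at 65.9 CPM in DMSO replicate 1 (others 75.1 to 76.3), *Bgn* at 522.6 CPM in DMSO replicate 4 (others 409.9 to 411.3), *Tgfbi* at 369.4 CPM in DMSO replicate 3 (others 325.7 to 331.0) and *Skil* at 198.4 CPM in CHIR99021 replicate 1 (others 213.8 to 215.7). In none of these 7 groups did the outlying kidney reach the range of the other treatment, apart from *Tgfbr1*, whose groups overlapped. The causes were not tested.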

How the results depend on the processing

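*Tgfb2*, *Inhba*, *Inhbb*, *Tgfbr2* and *Tgfbr3* kept direction and call under all 17 alternatives. Their log2 fold changes ran from 1.71 to 2.02, 2.37 to 3.11, 2.88 to 3.34, 0.21 to 0.41 and -0.95 to -0.74. *Tgfb1* was at -0.35 to -0.31 with a call under total-read scaling and on both FPKM scales, lost its call at -0.22 with DESeq2 and -0.20 with limma on log2(count + 1), and ran from -0.29 to -0.16 with single libraries left out (adjusted p 0.00747 to 0.128), without a call in 6 of 8. *Tgfb3* gained a call at 0.25 with the replicate block, was at 0.10 to 0.12 without a call under total-read scaling and on both FPKM scales, and ran from 0.15 to 0.34 with single libraries left out. The block changed no other member's call. *Tgfbr1* gained a call at -0.19 with total-read scaling, -0.18 on log2(FPKM + 1) and -0.19 on log2(FPKM + 0.1). *Ltbp1* lost its call in the same 3 (0.17, 0.15 and 0.16), in limma on log2(count + 1) (0.17) and without DMSO replicates 2 and 4 (0.26). In limma on log2(count + 1) *Inha* was at 0.077, without a call in either direction. Of 408 values for 24 other named genes, 401 kept side and direction and 6, all of *Acvr2b*, lost the call.

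Genes called higher numbered 3958, and 2507, 2520 and 2437 under total-read scaling, log2(FPKM + 1) and log2(FPKM + 0.1), while 6140, 6032 and 5899 were lower. These 3 settings share the shift of all genes by -0.14, -0.12 and -0.13. Genes called in all numbered 6611 to 8647, and 8472 with the block. Total-read scaling leaves out the TMM factors, which were 1.04 to 1.06 with DMSO and 0.948 to 0.963 with CHIR99021. Why these factors differed between the groups was not tested. Calls of differences about the size of that shift depended on the scaling.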
